A study of Mus musculus with 45 samples.

Results

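Before the liver can conjugate acetaminophen (APAP), it must make an activated sulfate and an activated sugar acid, and 5 genes of that supply were followed here. Slc26a1 encodes a sulfate exchanger of the hepatocyte membrane. Papss1 and Papss2 encode the PAPS synthases, which turn sulfate and ATP into 3'-phosphoadenosine 5'-phosphosulfate (PAPS), the sulfate donor of the sulfotransferases. Ugp2 encodes UDP-glucose pyrophosphorylase, which makes UDP-glucose for glycogen and for glucuronidation, and Ugdh encodes UDP-glucose dehydrogenase, which oxidises UDP-glucose to UDP-glucuronate, the donor of the UDP-glucuronosyltransferases. The genes were taken by symbol, gave 5 values per array of the 18180 genes measured, and were chosen on their levels in these same livers with earlier results known. Their levels and differences are therefore given as a description, with no p-value.

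Male C57Bl/6J mice aged 8 weeks and fasted for 16 h received 300 mg/kg APAP or the vehicle alone, 1% hydroxyethylcellulose, by oral gavage, and livers were taken 3, 6, 9 or 24 h later. A further group was killed at 0 h without dosing (untreated), so that every group shared the fast and was killed under isoflurane. Each of the 9 groups held 5 mice and each mouse 1 array, an Affymetrix GeneChip Mouse Genome 430 2.0, which gives 1 log2 value per Entrez gene. Values are on the log2 scale, so that 1 unit is a doubling, and levels of different genes cannot be set against each other because each gene has its own probes. A gene is called here when its Benjamini-Hochberg adjusted p in limma, over all 18180 genes, is under 0.05 and its change is at least 1.5-fold.

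The promoters of 2 of the genes held the core of the antioxidant response element, the sequence bound by the stress factor Nrf2, and are shown for that reason. The sequences are from RefSeq (GRCm38.p6), run 5' to 3' over the 250 bases before an annotated start, and carry the core TGACNNNGC or its reverse GCNNNGTCA in capitals. They are Ugdh at chr5:65435843-65436092 and Slc26a1 at chr5:108675366-108675615, both on the minus strand. The Ugdh window adjoins the outer 5' end of its locus. Both Slc26a1 windows searched lie inside the Slc26a1 locus, before internal starts.
Ugdh: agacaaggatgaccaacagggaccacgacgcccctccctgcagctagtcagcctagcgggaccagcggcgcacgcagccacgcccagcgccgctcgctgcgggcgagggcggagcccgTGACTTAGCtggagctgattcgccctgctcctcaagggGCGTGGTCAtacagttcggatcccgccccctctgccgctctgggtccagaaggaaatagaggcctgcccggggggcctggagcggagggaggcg
Slc26a1: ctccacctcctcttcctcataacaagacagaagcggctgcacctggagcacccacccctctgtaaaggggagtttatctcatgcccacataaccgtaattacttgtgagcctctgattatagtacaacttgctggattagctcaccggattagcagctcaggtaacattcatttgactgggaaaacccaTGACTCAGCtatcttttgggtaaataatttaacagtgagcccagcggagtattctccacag
Ugdh had 2 matches and this Slc26a1 window 1, while 10.2% of 32851 promoters of the same length held at least 1. Windows for Papss1, Papss2 and Ugp2 had none. The E-box CACGTG, found in 6.02% of promoters, occurred once, in a second Slc26a1 window, and the C/EBP-ATF composite TGATGNAAN, found in 3.44%, in none of them. A match is a run of letters and was not tested for binding, and letters missing from these windows say nothing about the factors. By Entrez number all 5 genes were found in RefSeq, with Papss1 on chromosome 3 (131564764 to 131643671), Papss2 on chromosome 19 (32595669 to 32667187), Ugdh on chromosome 5 (65413207 to 65435842), Ugp2 on chromosome 11 (21321126 to 21371267) and Slc26a1 on chromosome 5 (108669878 to 108678380). The Slc26a1 locus lies inside that of Idua in this annotation.

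The 5 genes did not move as a block after APAP. The mean of Slc26a1 stayed near its fasted level in APAP livers, with a wide spread at 24 h, while it was higher in vehicle livers. Papss1 was below vehicle early and above it at 24 h, and Papss2 was below vehicle from 6 h on. Ugdh and Ugp2 were a little above vehicle, and neither met the call rule at any time.

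**Figure D1:**
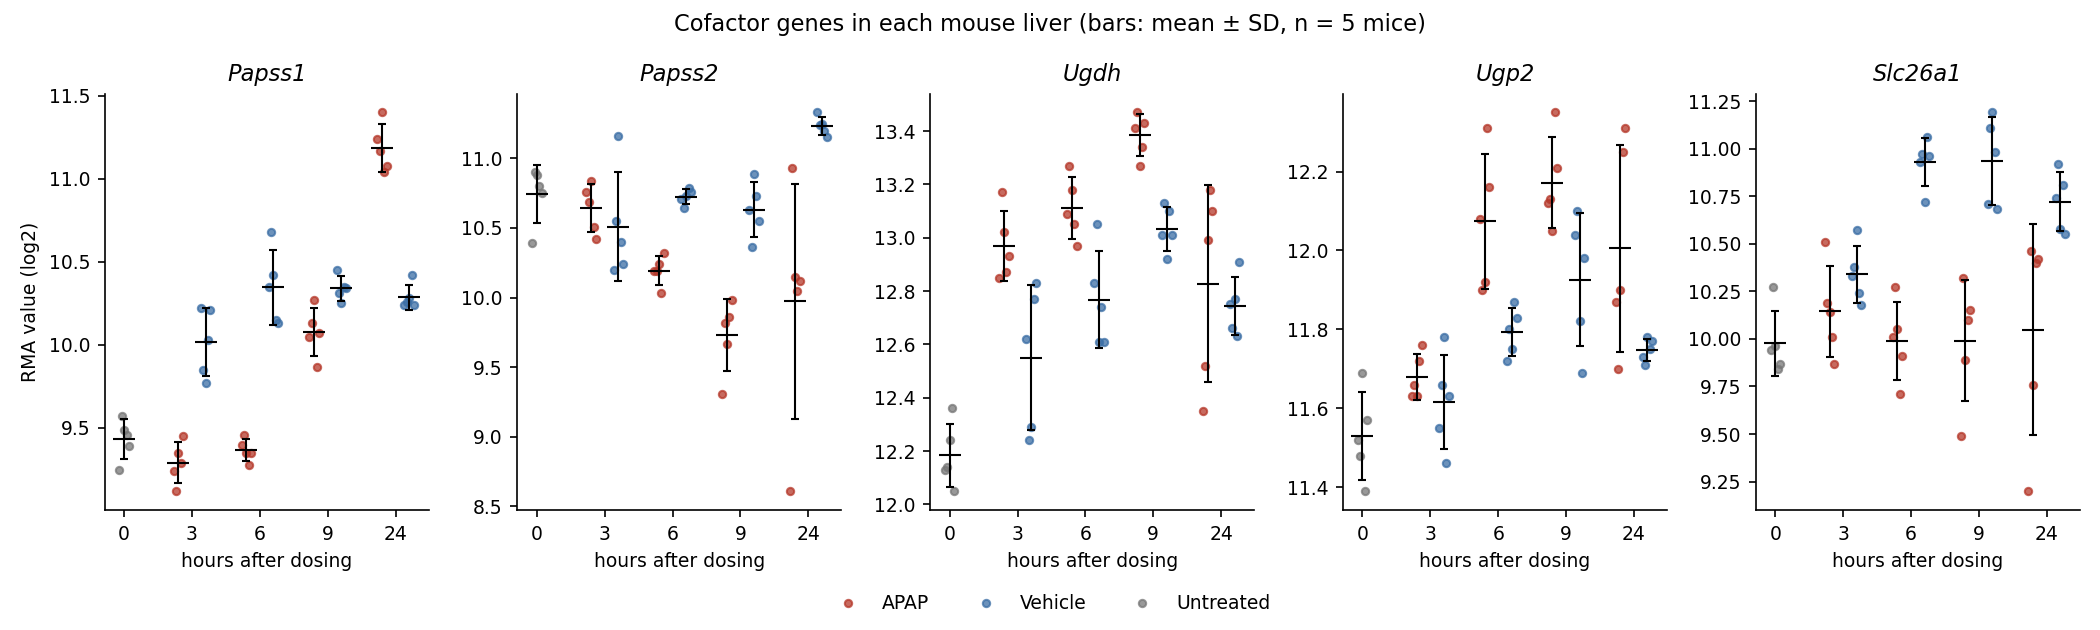
Log2 RMA value (y axis) of each gene in each mouse liver against hours after dosing (x axis), with APAP in red, vehicle in blue and untreated mice in grey; black bars are the mean ± SD of 5 mice. Papss1 reached 11.04 to 11.40 in APAP livers at 24 h, above each other group. Slc26a1 separated from vehicle at 6 and 9 h and, by a narrow gap, at 24 h.

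Slc26a1, the sulfate exchanger, had values of 10.51, 10.19, 10.14, 10.01 and 9.87 in APAP livers at 3 h, against 10.33, 10.38, 10.57, 10.24 and 10.18 in vehicle livers. The 2 groups overlapped, with a difference of -0.20 (APAP minus vehicle, log2; SE 0.11, n = 5 mice each). At 6 h the gene measured 10.01, 10.27, 10.05, 9.71 and 9.91 in APAP livers and 10.93, 10.97, 10.72, 11.06 and 10.96 in vehicle livers. No APAP liver came near the lowest vehicle liver, and the level was 1.91-fold lower (log2 difference -0.94, SE 0.095). At 9 h it measured 9.49, 10.32, 9.89, 10.10 and 10.15 in APAP livers and 10.71, 11.11, 11.19, 10.98 and 10.68 in vehicle livers, again apart and 1.93-fold lower (log2 difference -0.95, SE 0.15). At 24 h it measured 9.20, 10.46, 9.76, 10.40 and 10.42 in APAP livers, against 10.74, 10.92, 10.58, 10.81 and 10.55 in vehicle livers. All 5 APAP livers were below all 5 vehicle livers, but mice 2, 4 and 5 lay just under the lowest vehicle value and mice 1 and 3 were far lower. The 24 h difference was -0.67 (SE 0.22, 95% interval -1.16 to -0.18), and it was -0.46 without APAP mouse 1, -0.60 without APAP mouse 3 and -0.29 without both. This call was also lost without any single vehicle mouse at 24 h (differences of -0.62 to -0.72).

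The same gene measured 9.94, 10.27, 9.96, 9.84 and 9.87 in untreated livers. Its vehicle means of 10.34, 10.93, 10.93 and 10.72 at 3, 6, 9 and 24 h stood 0.37, 0.95, 0.96 and 0.75 above the untreated mean, and from 6 h on the vehicle and untreated arrays did not overlap. The APAP means of 10.15, 9.99, 9.99 and 10.05 differed from the untreated mean by 0.17, 0.02, 0.01 and 0.07, with overlapping ranges at every time. At 24 h, however, no single APAP liver lay within the untreated range. Mice 1 and 3 were below it, at 9.20 and 9.76, and mice 2, 4 and 5 above it, at 10.46, 10.40 and 10.42. In order of the mean, the untreated group came first, then APAP at 9, 6, 24 and 3 h, then vehicle at 3, 24, 6 and 9 h. Each neighbour in that order overlapped the next.

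Papss1, one of the PAPS synthases, measured 9.24, 9.12, 9.35, 9.29 and 9.45 in APAP livers at 3 h, against 10.22, 9.85, 9.77, 10.03 and 10.21 in vehicle livers. The groups were apart, and Papss1 was 1.65-fold lower after APAP (log2 difference -0.73, SE 0.094). At 6 h it measured 9.40, 9.46, 9.35, 9.28 and 9.35 in APAP livers and 10.35, 10.68, 10.42, 10.15 and 10.13 in vehicle livers, 1.97-fold lower (log2 difference -0.98, SE 0.094) and again without overlap. At 9 h the APAP livers, at 10.05, 10.13, 10.27, 9.87 and 10.07, came close to the vehicle livers, at 10.45, 10.31, 10.25, 10.35 and 10.34. APAP mouse 3 lay above the lowest vehicle mouse, and the difference of -0.26 (SE 0.069) did not reach 1.5-fold. By 24 h the order was turned, with 11.24, 11.17, 11.40, 11.04 and 11.08 in APAP livers and 10.24, 10.26, 10.28, 10.42 and 10.24 in vehicle livers. Every APAP liver was above every vehicle liver, and the level was 1.86-fold higher (log2 difference 0.90, SE 0.072, 95% interval 0.74 to 1.06). Without APAP mice 1 and 3 the 24 h difference was 0.81.

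Untreated livers had Papss1 values of 9.25, 9.57, 9.49, 9.46 and 9.39. Vehicle means of 10.02, 10.35, 10.34 and 10.29 at 3, 6, 9 and 24 h were 0.58, 0.91, 0.91 and 0.86 above the untreated mean of 9.43, without overlap at any time. APAP means were 9.29, 9.37, 10.08 and 11.19, which is -0.14 and -0.07 from the untreated mean with overlap at 3 and 6 h, and 0.65 and 1.75 above it without overlap at 9 and 24 h. The 9 groups thus fell into 3 blocks with a gap between them, APAP at 3 and 6 h with the untreated group, then all vehicle groups with APAP at 9 h, then APAP at 24 h. Within a block each neighbour overlapped the next.

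Papss2, the other PAPS synthase, did not follow Papss1. At 3 h it measured 10.76, 10.69, 10.84, 10.51 and 10.42 in APAP livers and 10.20, 10.55, 11.16, 10.40 and 10.24 in vehicle livers, which overlapped widely (log2 difference 0.13, SE 0.16, 95% interval -0.21 to 0.47). At 6 h it measured 10.19, 10.19, 10.24, 10.03 and 10.32 in APAP livers, all below the vehicle livers at 10.71, 10.64, 10.73, 10.79 and 10.76. That gap was narrow but clean, at 1.44-fold (log2 difference -0.53, SE 0.055), just short of the fold needed for a call. At 9 h it measured 9.31, 9.82, 9.67, 9.86 and 9.98 in APAP livers and 10.63, 10.36, 10.89, 10.73 and 10.55 in vehicle livers, 1.87-fold lower with no overlap (log2 difference -0.90, SE 0.12). At 24 h the APAP livers had 8.61, 10.93, 10.15, 10.05 and 10.12, while the vehicle livers lay close together at 11.33, 11.24, 11.25, 11.20 and 11.15. APAP mouse 1 was far below its group and mouse 2 nearly reached vehicle, so the spread in APAP livers (SD 0.84) was much wider than in vehicle livers (SD 0.0644). Papss2 was 2.40-fold lower at 24 h (log2 difference -1.26, SE 0.32, 95% interval -1.97 to -0.55), with a difference of -0.92 without APAP mouse 1 and -0.87 without mice 1 and 3.

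In untreated livers Papss2 measured 10.39, 10.90, 10.88, 10.80 and 10.75. Vehicle means differed from the untreated mean by -0.23, -0.02 and -0.12 at 3, 6 and 9 h, all with overlap, and were 0.49 above it without overlap at 24 h. APAP means differed from it by -0.10, -0.55, -1.02 and -0.77 at 3, 6, 9 and 24 h, and all APAP livers were below all untreated livers at 6 and 9 h. The vehicle group at 24 h was the highest of the 9 and the one set apart from its neighbour, and APAP at 9 h had the lowest mean, 9.73, overlapping APAP at 24 h.

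The 2 synthases can be compared by how the APAP difference changed with time, in a fit over the 40 dosed arrays. The Papss1 difference at 24 h exceeded that at 3 h by 1.62 (SE 0.12, 95% interval 1.37 to 1.88) and that at 9 h by 1.16 (SE 0.12). The Papss2 difference at 24 h was below that at 3 h by a change of -1.39 (SE 0.30, 95% interval -2.01 to -0.78), and its change from 9 to 24 h was -0.36 (SE 0.30, 95% interval -0.97 to 0.25). In each of the 5 APAP mice at 24 h, Papss1 was above and Papss2 below every vehicle mouse. APAP mouse 1 combined the lowest Papss2, 8.61, with a Papss1 of 11.24, the next to highest in its group. The changes of Ugdh, Ugp2 and Slc26a1 from 3 to 24 h were -0.33, 0.20 and -0.48 and those from 9 to 24 h were -0.27, 0.01 and 0.27, each with an interval reaching or crossing 0. In the change from 3 to 24 h, 1 of 5 genes was called higher and 1 lower, where 6.03% and 2.21% of all genes were. In the change from 9 to 24 h, 1 of 5 was called higher and 0 lower, where 1.74% and 1.24% of all genes were.

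**Figure D2:**
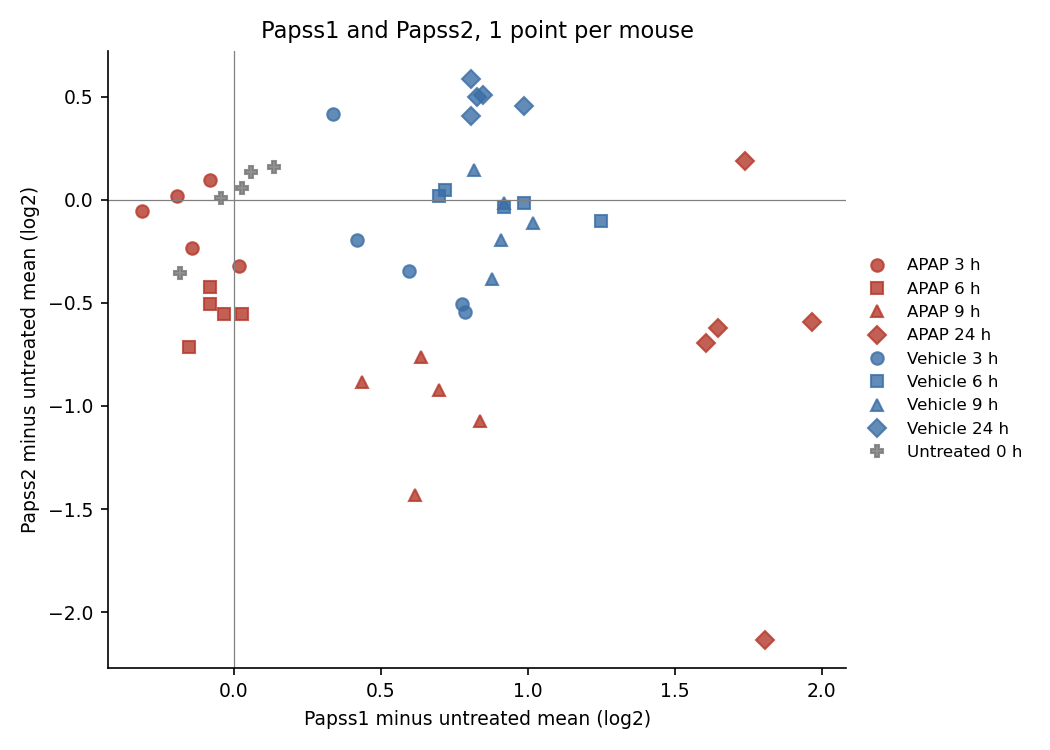
Papss1 (x axis) against Papss2 (y axis) in each of the 45 livers, both as the log2 difference from the mean of the untreated group, with APAP in red, vehicle in blue and untreated in grey and 1 marker shape per time. APAP livers at 3 and 6 h lie left, near the untreated livers on the Papss1 axis, and those at 24 h lie far right, 4 of 5 of them below the untreated Papss2 mean.

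Ugp2, which makes UDP-glucose, moved least. At 3 h it ranged over 11.63 to 11.76 in APAP livers and 11.46 to 11.78 in vehicle livers (log2 difference 0.06, SE 0.061). At 6 h it measured 12.08, 11.90, 11.92, 12.31 and 12.16 in APAP livers and 11.72, 11.80, 11.75, 11.87 and 11.83 in vehicle livers. All APAP livers were above vehicle by a small margin, 1.22-fold (log2 difference 0.28, SE 0.076). At 9 h it measured 12.12, 12.13, 12.05, 12.35 and 12.21 in APAP livers and 12.04, 12.10, 11.82, 11.69 and 11.98 in vehicle livers, and APAP mouse 3 fell within the vehicle range (log2 difference 0.25, SE 0.082). At 24 h it measured 11.87, 11.70, 11.90, 12.25 and 12.31 in APAP livers and 11.73, 11.71, 11.78, 11.75 and 11.77 in vehicle livers. Here 4 of 5 APAP livers were above all vehicle livers and mouse 2 below them (log2 difference 0.26, SE 0.11). Untreated livers had 11.52, 11.48, 11.69, 11.39 and 11.57, the lowest mean of the 9 groups. Above that mean stood the vehicle groups by 0.09, 0.26, 0.40 and 0.22 and the APAP groups by 0.15, 0.54, 0.64 and 0.48, and at 3 h each group overlapped the untreated one. Both treatments peaked at 9 h, and in the order of the means every neighbour overlapped the next.

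Ugdh, which makes UDP-glucuronate, measured 12.85, 13.17, 13.02, 12.87 and 12.93 in APAP livers at 3 h, against 12.62, 12.24, 12.29, 12.77 and 12.83 in vehicle livers. No APAP liver overlapped vehicle, though the gap was very narrow (lowest APAP 12.85, highest vehicle 12.83). The level was 1.34-fold higher (log2 difference 0.42, SE 0.11). At 6 h it measured 13.09, 13.27, 13.18, 13.05 and 12.97 in APAP livers and 12.83, 13.05, 12.61, 12.74 and 12.61 in vehicle livers, where vehicle mouse 2 reached into the APAP range (log2 difference 0.35, SE 0.089). At 9 h the APAP livers had 13.41, 13.47, 13.27, 13.34 and 13.43, above all vehicle livers at 13.01, 13.13, 12.92, 13.10 and 13.01. This was the tightest of the 4 differences, 1.28-fold (log2 difference 0.35, SE 0.055, 95% interval 0.23 to 0.47). At 24 h the APAP livers spread over 12.35, 12.52, 12.99, 13.18 and 13.10, on both sides of the vehicle livers at 12.75, 12.66, 12.77, 12.63 and 12.91. Mice 1 and 2 were below vehicle and mice 3, 4 and 5 above it, and the mean difference was 0.09 (SE 0.15, 95% interval -0.25 to 0.42).

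Untreated livers had the lowest Ugdh, at 12.13, 12.14, 12.24, 12.36 and 12.05. The vehicle groups stood 0.36, 0.58, 0.85 and 0.56 above the untreated mean at 3, 6, 9 and 24 h, overlapping it at 3 h alone. The APAP groups stood 0.78, 0.93, 1.20 and 0.64 above it, overlapping it at 24 h alone, where APAP mouse 1 lay at 12.35. APAP at 9 h had the highest mean, 13.38, and in the order of the means every neighbour overlapped the next.

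**Figure D3:**
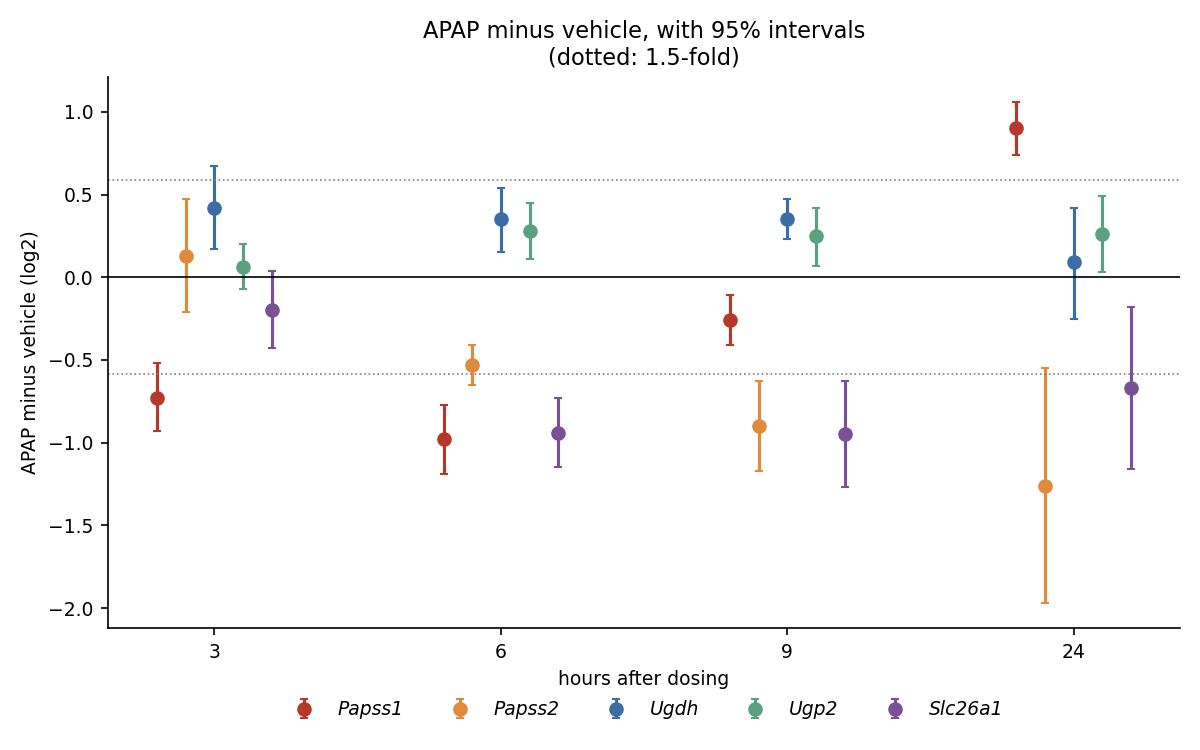
APAP minus vehicle log2 difference (y axis) of each gene at 3, 6, 9 and 24 h (x axis, hours from dosing), with 95% intervals from limma and dotted lines at 1.5-fold. Papss1 lies at -0.98 at 6 h and 0.90 at 24 h, Papss2 reaches -1.26 at 24 h, and Ugdh and Ugp2 stay between 0.06 and 0.42.

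Counted by the call rule, 0 of 5 genes were higher and 1 lower at 3 h after APAP, where 1.68% of all genes were called higher and 2.34% lower. At 6 h, 0 were higher and 2 lower, where 2.29% and 3.03% of all genes were. At 9 h, 0 were higher and 2 lower, where 2.49% and 2.05% were, and at 24 h 1 was higher and 2 lower, where 2.86% and 1.82% were. Arrays of the 2 treatments were fully apart for 2, 4, 3 and 3 of the 5 genes at 3, 6, 9 and 24 h, while 16.1%, 21.5%, 21.2% and 20.3% of all genes did not overlap. Because the 5 genes were chosen on these levels, nothing is read from the counts. A stricter question, whether the change itself exceeds 1.5-fold, was met by 0 of 5 genes at each time in limma's test against that fold.

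The vehicle livers changed too, and the 4 vehicle comparisons share the same 5 untreated arrays. Set against untreated livers, 0, 2, 3 and 2 of the 5 genes were called higher in vehicle livers at 3, 6, 9 and 24 h and 0 lower at each time. Papss1 and Slc26a1 made up the calls at 6 and 24 h, and Ugdh joined them at 9 h. Over all genes 1.14%, 1.71%, 2.03% and 2.31% were called higher and 0.853%, 1.19%, 1.84% and 2.09% lower at the 4 times. Vehicle and untreated arrays did not overlap for 1, 4, 4 and 5 of the genes, where 11.6%, 16.7%, 18.0% and 19.3% of all genes did not overlap. Gavage, feeding, hours since dosing and time of day differ between these groups and cannot be told apart. Food was given again after the fast, at an hour not given in the sources used here.

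Some cell type markers also differed between APAP and vehicle livers. The share of all genes called at each time is given above, beside the counts of the 5 genes. The summed level of 6 hepatocyte markers (log2 of the summed linear values) was 17.32 to 17.36 in APAP livers at 24 h and 17.28 to 17.32 in vehicle livers. Of 8 markers of the pericentral hepatocytes, which line the central vein and activate APAP, 5, 6, 6 and 5 were called lower at 3, 6, 9 and 24 h, with a summed level at 24 h of 14.37 to 15.14 in APAP livers and 15.83 to 15.91 in vehicle livers. Of 6 periportal markers 2 were called higher at 3 h and 2 lower at 24 h. Of 7 macrophage markers 0, 1, 3 and 4 were called higher at 3, 6, 9 and 24 h, at 24 h summing to 12.95 to 14.11 in APAP livers and 12.52 to 12.73 in vehicle livers, and of 4 neutrophil markers 2, 0, 2 and 2 were, at 24 h summing to 10.11 to 12.87 in APAP livers and 9.75 to 10.04 in vehicle livers. APAP mouse 1 at 24 h, with the lowest Papss2, Slc26a1 and Ugdh of its group, also had the lowest pericentral sum, 14.37. Mouse 2 had the next lowest sum, 14.83, and the next lowest Ugdh, 12.52. Its Papss2, 10.93, and Slc26a1, 10.46, were the highest of the group. Its periportal sum was 16.11, against 15.69 to 15.74 in the other APAP mice at 24 h. Mice 3, 4 and 5 had pericentral sums of 15.06, 15.11 and 15.14. Their Slc26a1 was 9.76, 10.40 and 10.42 and their Papss2 10.15, 10.05 and 10.12. Whether these genes go with the sums from mouse to mouse was not tested. Mice 1 and 3, with the lowest Slc26a1, had neutrophil sums of 12.28 and 12.87, against 10.11 to 10.55 in the other 3 APAP mice, and the part of these cells in the results was not tested. In whole liver, fewer cells of a type and less RNA per cell cannot be told apart.

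Across the 9 group means, the genes whose pattern was most like that of Papss1 were Jpt2, Spcs3 (a signal peptidase subunit) and Rpn1 (a subunit of the oligosaccharyltransferase), with Pearson's r of 0.990, 0.989 and 0.988. For Papss2 they were Fam71b, Echs1 (a mitochondrial enoyl-CoA hydratase) and Mccc2 (leucine breakdown), with r of 0.982, 0.981 and 0.973. For Ugdh they were Hspa9 (a mitochondrial chaperone), Gclm (a subunit of the first enzyme of glutathione synthesis) and Yod1, with r of 0.977, 0.951 and 0.936. Spred1, Cyp2a12 and Rundc3b were nearest to Ugp2, with r of 0.978, 0.975 and 0.947, and Nr5a2 (a nuclear receptor), Slc2a9 (a urate transporter) and Gfm1 nearest to Slc26a1, with r of 0.981, 0.972 and 0.952. Among the 5 genes themselves Ugdh and Ugp2 were most alike, r of 0.86, and Papss1 and Papss2 had r of -0.18. These are descriptions over 9 means of 5 arrays each, taken as the highest of all genes.

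The other genes of the pathway were listed in 9 groups of 96 genes, of which 91 had a value. At 3, 6, 9 and 24 h, 6, 6, 6 and 5 of the 91 were called higher in APAP livers and 5, 7, 11 and 16 lower. Over all genes 1.68%, 2.29%, 2.49% and 2.86% were called higher and 2.34%, 3.03%, 2.05% and 1.82% lower. The same shares apply to the counts of each list below. In these lists, rose and fell mean above and below the vehicle livers of the same hour. The vehicle livers changed with time too, so a gap need not be a move of the APAP livers. The median difference over the 91 was -0.08, -0.06, -0.07 and -0.09, where the median over all genes was 0.017, 0.01, -0.025 and -0.052.

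Of 9 genes for sulfate uptake other than by Slc26a1, and for PAPS transport and breakdown, 0 were called at any time. An unadjusted p under 0.05 in limma was reached by 2, 6, 5 and 3 of the 9 at 3, 6, 9 and 24 h, where 34.6%, 37.6%, 38.0% and 44.8% of all genes reached it. Bpnt1, which breaks down the product left when PAPS has given its sulfate, differed by -0.47 at 6 h (10.19 in APAP livers and 10.66 in vehicle livers, adjusted p = 6.92e-05) and by -0.42 at 9 h (adjusted p = 0.0013), under 1.5-fold at both times. Slc26a6, named after its values were seen, differed by -0.25, -0.26, -0.50 and -0.36, each under 1.5-fold. Its APAP arrays were all below vehicle at 3, 6 and 9 h. The list medians were -0.04, 0.03, -0.08 and -0.08, and the highest differences 0.14, 0.21, 0.23 and 0.13.

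Among 10 genes that form sulfate from cysteine or compete for it, 1, 1, 0 and 0 were called higher and 0, 1, 2 and 3 lower, with list medians of -0.09, -0.25, -0.42 and -0.49. Got1, the cytosolic aspartate aminotransferase, rose by 1.00 at 3 h (13.65 in APAP livers and 12.65 in vehicle livers, adjusted p = 8.56e-06) and by 1.09 at 6 h (adjusted p = 0.000404). Mpst, a sulfurtransferase, fell by 1.02 at 6 h (adjusted p = 0.00157) and fell by 1.28 at 9 h (8.32 in APAP livers and 9.60 in vehicle livers, adjusted p = 4.54e-05). Cth, which makes cysteine from cystathionine, fell by 0.93 at 24 h (12.76 in APAP livers and 13.69 in vehicle livers, adjusted p = 0.00709). Cbs, which makes cystathionine, differed by 0.19, 0.06, 0.04 and 0.02 at the 4 times and was not called. The remaining calls, picked out here after their values were seen, were Ethe1, a mitochondrial sulfur dioxygenase, at -0.69 and -0.82 at 9 and 24 h, and Suox, the sulfite oxidase that makes sulfate, at -0.88 at 24 h.

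Of 13 genes for UDP-glucose and glycogen, 1, 1, 0 and 1 were called higher and 2 lower at each time. Pgm2, of the phosphoglucomutase family, rose by 0.67, 0.65 and 1.29 at 3, 6 and 24 h (24 h, 7.89 in APAP livers and 6.60 in vehicle livers, adjusted p = 0.00112). Pygl, the liver glycogen phosphorylase, was also called, at -0.75 and -0.82 at 9 and 24 h, and Gys2, the liver glycogen synthase, at -0.77 at 24 h, both named after their values were seen.

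Of 10 genes that use UDP-glucuronate in other ways, 0 were called higher and 3, 3, 2 and 3 lower. Rgn and Gulo, enzymes of the last steps of vitamin C synthesis from glucuronate, fell at all 4 times. Rgn differed by -0.78, -1.13, -1.60 and -0.73 (9 h, 11.85 in APAP livers and 13.44 in vehicle livers, adjusted p = 1.21e-06), and Gulo by -1.05, -0.94, -1.16 and -1.12 (3 h, 11.65 in APAP livers and 12.70 in vehicle livers, adjusted p = 2.1e-07). Dcxr, which reduces xylulose, fell by 0.86 at 24 h (adjusted p = 0.00203). Akr1a1, which reduces glucuronate, differed by -0.15, -0.09, -0.04 and 0.12 and was not called. The remaining calls were of Slc35d2, a nucleotide sugar transporter, at -0.73 and -0.76 at 3 and 6 h, named after its values were seen.

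The sulfotransferases and UDP-glucuronosyltransferases spend the cofactors on drugs and steroids. Of 10 sulfotransferases 0, 0, 3 and 4 were lower at 3, 6, 9 and 24 h and 0 higher. An unadjusted p under 0.05 in limma was reached by 4, 4, 4 and 8 of the 10. Of all genes, 34.6%, 37.6%, 38.0% and 44.8% reached it. Sult2a8 had differences of -0.81 at 9 h and -1.60 at 24 h (12.10 in APAP livers and 13.70 in vehicle livers, adjusted p = 0.00509), Sult1b1 of -0.84 and -1.17 at the same times, and Sult1d1 fell by 0.97 at 24 h (adjusted p = 0.0104). Sult1a1, which sulfates small phenols, differed by -0.17 at 24 h (13.00 in APAP livers and 13.17 in vehicle livers, adjusted p = 0.303). Of 9 UDP-glucuronosyltransferases 0, 0, 1 and 0 were higher and 0, 1, 2 and 3 lower. An unadjusted p under 0.05 in limma was reached by 5, 5, 7 and 7 of the 9, beside the same shares of all genes. Ugt2b1 had differences of -0.76 at 9 h and -1.18 at 24 h (12.35 in APAP livers and 13.53 in vehicle livers, adjusted p = 0.00049), Ugt2a3 of -0.64, -0.90 and -1.01 at 6, 9 and 24 h, and Ugt2b38 fell by 1.17 at 24 h (adjusted p = 0.000673). Ugt2b34 differed by -0.57 at 6 h, under 1.5-fold. The UGT2B genes are near copies of each other, so their probes may share signal, and the called Ugt2b37, 0.92 above vehicle at 9 h, is of that family. It and the 2 other called sulfotransferases, Sult1c2 at -0.65 at 9 h and Sult5a1 at -0.89 at 24 h, are named after their values were seen. The listed UGT1A genes were not analysed here.

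Of 4 efflux pumps for conjugates, Abcc2, the pump into bile, rose by 0.67 at 3 h (adjusted p = 0.00283), and Abcc4, a pump into blood, rose by 2.69 at 24 h (9.51 in APAP livers and 6.82 in vehicle livers, adjusted p = 1.48e-06). Abcc3, another pump into blood, differed by -0.01, -0.09, 0.06 and 0.11 and was not called. Of 18 genes for heparan and chondroitin sulfate, which also draw on PAPS and UDP-glucuronate, 0 were called at any time, with 4, 6, 4 and 5 of the 18 at an unadjusted p under 0.05 in limma, a share below that of all genes at each time. Their first in alphabetical order, B3galt6, a linker galactosyltransferase, differed by -0.11, -0.03, 0.11 and 0.03.

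Of 8 targets of Nrf2, 3, 4, 5 and 3 were called higher and 0, 0, 0 and 1 lower. Srxn1, the sulfiredoxin, rose by 1.92, 2.68, 2.93 and 2.43 (9 h, 12.96 in APAP livers and 10.03 in vehicle livers, adjusted p = 1.14e-08). Txnrd1, a thioredoxin reductase, rose by 0.96, 1.26 and 1.34 at 3, 6 and 9 h (9 h, adjusted p = 2.99e-07). Me1, the cytosolic malic enzyme, was 1.28 lower than vehicle at 24 h (11.40 in APAP livers and 12.68 in vehicle livers, adjusted p = 0.00103). At 3 and 9 h its mean was 11.68 and 11.91 in APAP livers and 11.53 and 11.79 in vehicle livers. Gclm differed by 0.16, 0.16, 0.35 and 0.14 and was not called. Gclc, its catalytic partner in glutathione synthesis, differed by 1.13, 1.23 and 1.05 at 3, 6 and 9 h and was called each time, as were Nqo1 at 6, 9 and 24 h (0.73, 0.95 and 0.84), G6pdx at 9 h (0.68) and Gsr at 24 h (0.70), all named after their values were seen.

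**Figure D4:**
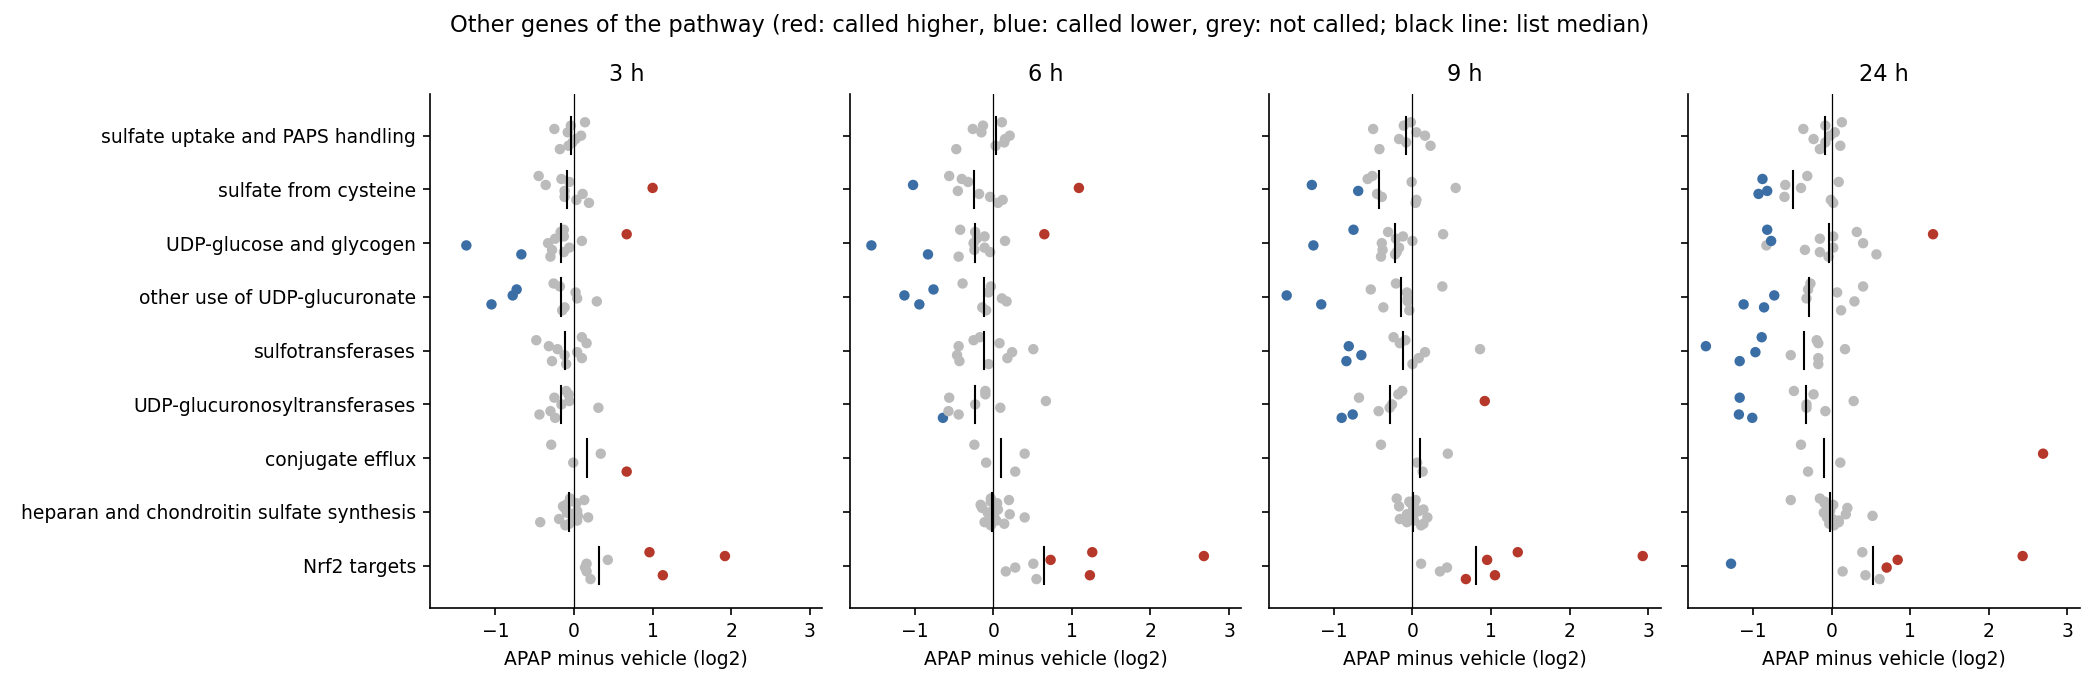
APAP minus vehicle log2 difference (x axis) of each of the 91 listed genes at 3, 6, 9 and 24 h (panels), by list (rows), with genes called higher in red, called lower in blue and not called in grey, and the median of each list as a black line. Srxn1 is the rightmost point at 3, 6 and 9 h, at 1.92, 2.68 and 2.93, and Abcc4 at 24 h, at 2.69.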

How the data were processed

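Livers of 45 mice in 9 groups of 5 were measured, 1 array each, and grouped from the labels. The deposited log2 values came from RMA, run by the authors in affy 1.64.0 under R 3.6.1, using version 24 of the BrainArray probe grouping, and were used unchanged for all 18180 genes. RMA equalises the arrays' distributions, so values are relative to the rest of each array, and a spread of 5 arrays limits the precision. Gene symbols came from a second deposited table, whose 45 value columns no label ties to a mouse and which were not used.

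Each time point was fitted on its 10 arrays with limma 3.58.1 (R 4.3.3; lmFit, eBayes, two-sided). Changes of the APAP difference with time were contrasts over 40 arrays. The p-values were adjusted by Benjamini-Hochberg over all genes, with a call at an adjusted p under 0.05 and 1.5-fold. On simulated data the fit for APAP against vehicle at 3 h was checked over all 18180 genes with 200 changed genes.

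The 5 genes and the lists were chosen with earlier results of these data known. Named were all 5 genes, up to 3 called genes and 1 uncalled gene per list, and the 3 genes most like each of the 5. Some named genes of the UDP-glucose list are not reported here. Summed marker levels are the log2 of summed linear values. Of 96 listed genes 5 had no value under their symbol and were not analysed here. RefSeq (GRCm38.p6) matched 18172 Entrez numbers, 18087 with the same symbol.

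Alternatives were a replicate block, 1 model over all arrays, trend and robust moderation, re-centred arrays, leaving out the dimmest 25% of genes, an adjusted p under 0.01, a test against 1.5-fold, and leaving out single arrays or APAP mice 1 and 3 at 24 h.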

Additional observations from a re-analysis of the deposited data

Results flagged for a closer look

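Of the 45 gene and group combinations of the 5 genes, 2 held a mouse far from the rest of its group, and chance alone would mark about 5% of such groups. For Papss1, 1 vehicle liver at 24 h lay at 10.42, with a gap to its nearest neighbour of 0.771 of the whole range of the group. For Slc26a1, 1 untreated liver lay at 10.27, with a gap of 0.735 of the range.

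The APAP difference changed with time, by a contrast over the 8 dosed groups, in 3 cases. For Papss1 it was 1.62 higher at 24 h than at 3 h and 1.16 higher at 24 h than at 9 h. For Papss2 the change from 3 to 24 h was -1.39. These contrasts use the levels on which the genes were chosen.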

How the results depend on the processing

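None of the alternatives turned the direction of a called difference that was checked. Of 685 alternative values for differences of the 5 genes, 685 moved by less than the spread between mice. The thresholds, the moderation, the gene filter, the 1 model and the replicate block leave a difference unchanged by design. Leaving out 1 array can shift it by only part of that spread, so this count says little about stability. Testing against a 1.5-fold change left 0 of 5 genes called after APAP at 3, 6, 9 and 24 h, 0, 1 and 1 called in vehicle against untreated livers at 6, 9 and 24 h, and 1 in the change from 3 to 24 h. Under the same test the listed pathway genes called numbered 4, 4, 5 and 2 at 3, 6, 9 and 24 h, against 11, 13, 17 and 21. An adjusted p under 0.01 left 1 of 5 genes at 24 h, Papss1, and removed the calls of Papss2 and Slc26a1. Re-centred arrays gave 1 call, Papss1, in vehicle livers at 3 h, where there was 0, because its difference lay at the 1.5-fold limit. Leaving out APAP mice 1 and 3 gave 2 calls in the change from 9 to 24 h, Slc26a1 being added at 0.65, where there was 1. Leaving out single arrays gave 0 to 1 calls in vehicle livers at 3 h (without untreated mouse 2, 3 or 4 or vehicle mouse 2 or 3, Papss1 was called), 2 to 3 at 6 h and at 24 h, where Ugdh was added, and 2 to 3 after APAP at 24 h. The replicate block left 1, 2, 2 and 3 of 5 genes called after APAP at 3, 6, 9 and 24 h and changed no call of these genes. Same-numbered mice deviated together with r of -0.27 to 0.40, and 4 of 20 correlated best with their own number, so the numbers were not taken to pair mice. Slc26a1 at 24 h also lost its call with trend and robust moderation and with re-centred arrays. Each pathway gene named by the rule was checked only at the time of its largest difference. There, 17 of 505 alternative values lost a call and 3 gained one. Calls at other times, and genes named after their values were seen, were not checked singly.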
